A study of Homo sapiens with 6 samples.

Results

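The 52 genes described here encode the machinery that copies DNA in human cells, from the loading of origins to the packaging of the new strands. They were chosen by symbol from the known parts of that machinery. No measured value enters the rule, although the choice was made with earlier results of these data known. All 52 were found among the 63241 genes listed in each library and all 52 passed the filter on low counts, which left 15295 genes for testing. The libraries were made from MDA-MB-231, an established line of human breast cancer cells that lack the estrogen and progesterone receptors and HER2 amplification. Cells were exposed for 24 h to 5 μM NCD (nitidine chloride, a plant alkaloid) or to 0.1% DMSO, the vehicle, and RNA was sequenced in 3 libraries per group. The study sequenced these cells to look for the route by which the compound acts on immune genes, and the replication genes were not its subject. The groups share a single line, dose and time, and the labels do not say whether libraries of a group came from separate cultures, so that p-values measure only the spread between libraries, which may be technical.

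DNA replication begins when the origin recognition complex, CDC6 and CDT1 load the ring-shaped MCM helicase onto DNA in G1, a step called licensing. CDC45 and the GINS complex then switch the helicase on, polymerase alpha with its primase lays down primers, and polymerases delta and epsilon extend them with the PCNA clamp, which the RFC complex loads. Most of these genes are transcribed in waves tied to the cell cycle, many of them under E2F transcription factors, and they are known for their high activity in proliferating tumor cells.

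Totals ranged from 18223594 to 19410833 counts with DMSO and from 18232169 to 21629653 with NCD. The members were well covered, with at least 310 counts in every library except for POLA1 and PRIM2, where the lowest was 60. VIM, CD44, AXL, KRT18 and EGFR, which MDA-MB-231 is known to express, were abundant, and ESR1, PGR and CDH1, which it lacks, had at most 7, 3 and 4 counts. GATA3 (98 to 166 counts) and EPCAM (45 to 93 counts) were low but present. For NCD replicates 2 and 3 the description in free text carries another cell line number, while the cell line field gives MDA-MB-231. Libraries of a group differed among the members by transcript length, with DMSO replicate 2 and NCD replicate 3 on one side: the 11 members with transcripts over 4 kb were higher there by a median of 0.11 and 0.24 on the log2 scale, and the 13 members under 2 kb lower, with medians of -0.14 and -0.15. DMSO replicate 1 deviated about as far the other way, by -0.09 for the long and 0.15 for the short members. Leaving out DMSO replicate 2 and NCD replicate 3 left the count of differentially expressed members at 5.

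Under the scaling used (TMM, described below), the median change of the replication genes was near zero, and the few changes past the fold threshold were in single genes. This median moved with the scaling, to 0.20 with library totals and -0.37 with TMM from genes with a span of at most 20 kb. A gene was called differentially expressed where its log2 fold change exceeded 1 in size and its p, from the quasi-likelihood test of edgeR and adjusted by Benjamini-Hochberg over all tested genes, was below 0.05. By this rule 5 of 52 members were called (9.62%), against 31.0% of all tested genes. The 2 higher members were CDT1 and ORC6, beside 13.5% of all genes called higher, and the 3 lower members were POLA1, PRIM2 and ORC2, beside 17.5% called lower. By the adjusted p alone, 38 members passed (73.1%, against 69.3% of all genes), 21 of them higher (35.3% of all genes) and 17 lower (34.1% of all genes). The median log2 fold change was 0.01 for the members and 0.04 for all tested genes, and the median size of the change without its sign was 0.39 and 0.63. In all, 32 members (61.5%) lay within 0.5 of zero on the log2 scale, compared with 41.8% of all genes.

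**Figure D1:**
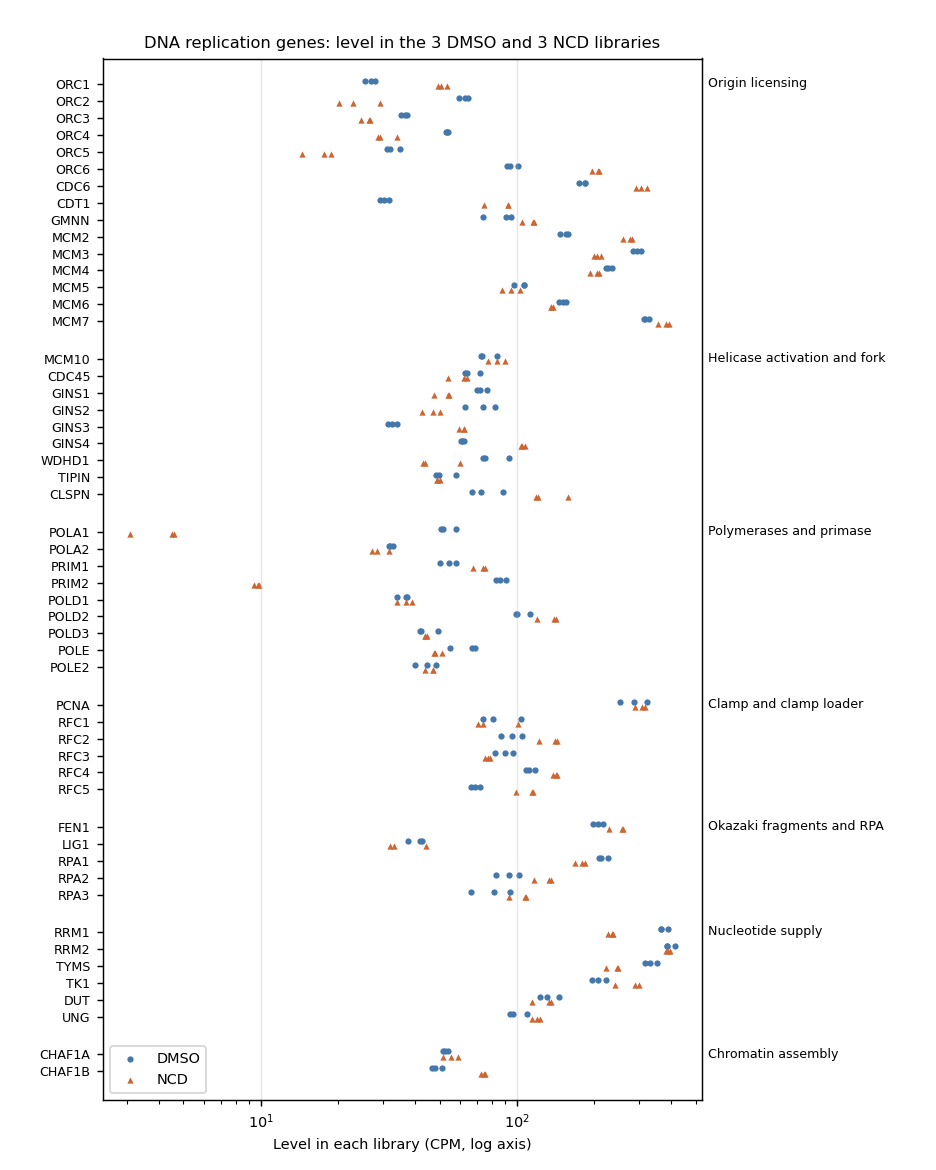
Level of each of the 52 genes in each library, in CPM (counts scaled to the TMM-adjusted library size) on a log axis, with DMSO libraries as circles and NCD libraries as triangles and genes grouped by role. POLA1 and PRIM2 are the members whose NCD libraries lie far to the left, at 3.10 to 4.59 and 9.46 to 9.83 CPM. Levels of different genes are not comparable here because CPM is not divided by transcript length.

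Directions of small changes depended on how libraries were scaled. TMM, which sets the bulk of genes to no change, was the scaling used. Scaling by library totals moved the median log2 fold change of all genes by 0.20, and TMM computed from genes with a span of at most 20 kb moved it by -0.37. Such a scaling moves every gene by about the same amount, members included. The share of all calls that were higher was 43.6% with TMM, 56.2% with library totals and 22.6% with the short-gene TMM. Across 4 scalings (these 3 and DESeq2's size factors), 10 members passed the adjusted p as higher in every one and 12 as lower in every one, while 30 did not pass in the same direction in all 4. DESeq2's size factors moved the median of all genes by only -0.02 from TMM, so the 4 are not independent. The same count was not made over all tested genes, so it is not read as particular to the members. The 10 were CDT1, ORC6, ORC1, GINS3, MCM2, CLSPN, GINS4, CDC6, RFC5 and CHAF1B, and the 12 were POLA1, PRIM2, ORC2, ORC5, ORC4, WDHD1, RRM1, GINS2, MCM3, ORC3, TYMS and GINS1. Among the members, "rose" and "fell" are used below only for these 22 genes.

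**Figure D2:**
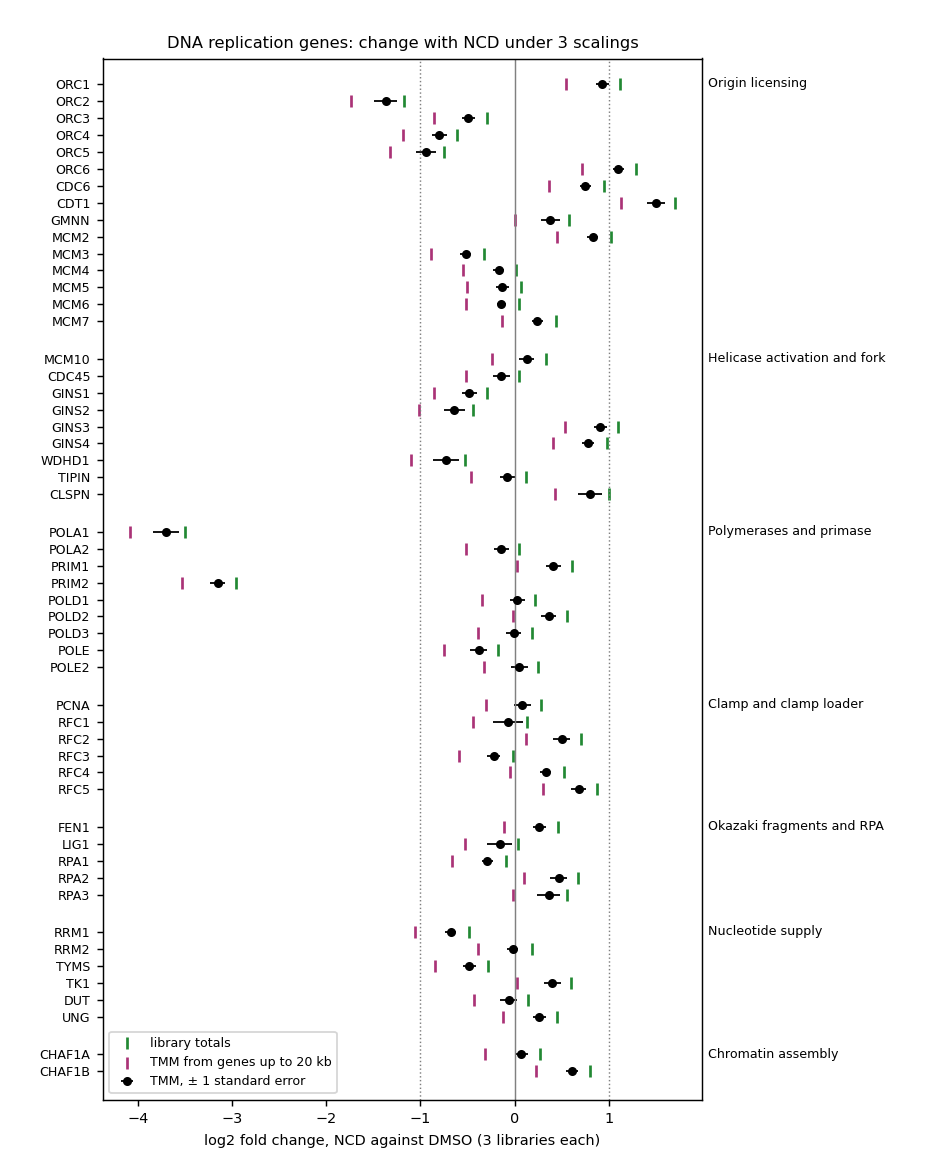
log2 fold change of each member with NCD against DMSO. Black points give the TMM fit with 1 standard error, green ticks the fit with library totals and purple ticks the fit with TMM from genes with a span of at most 20 kb, and dotted lines mark a change of 1. POLA1 and PRIM2 lie at the far left under each scaling shown, while ORC6 passes the upper line under TMM and library totals and lies at 0.72 under the short-gene TMM. Many members near zero change sign between the green and purple ticks.

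Licensing factors held 3 of the 5 called members and split in opposite directions. These were 3 of 15 licensing genes, beside 31.0% of all tested genes called, so the calls are not read as concentrated in licensing. Of the 15 genes, 7 passed the adjusted p as higher and 7 as lower, beside 35.3% and 34.1% of all tested genes. Under every scaling, 5 rose and 5 fell. The origin recognition complex, the assembly that marks origins, divided by subunit. ORC6, its smallest subunit (ENSG00000091651, GRCh38 chromosome 16, 46689643 to 46698394), had 101.1, 91.8 and 94.0 CPM with DMSO and 206.5, 209.4 and 197.0 CPM with NCD. Every NCD library lay above every DMSO library, with a log2 fold change of 1.10 (standard error 0.06, edgeR adjusted p = 5.21e-07), which was 0.72 under the short-gene TMM. ORC2, a core subunit (ENSG00000115942, GRCh38 chromosome 2, 200908973 to 200963680), had 62.8, 64.4 and 59.5 CPM with DMSO and 22.9, 20.3 and 29.1 CPM with NCD. It fell to 38.8% of its DMSO level without overlap between groups (log2 fold change -1.37, standard error 0.12, edgeR adjusted p = 1.06e-05). ORC1, a subunit whose protein level follows the cell cycle, rose by a log2 fold change of 0.93, just below the fold threshold. ORC3, ORC4 and ORC5 fell with log2 fold changes of -0.49, -0.80 and -0.94. ORC5 passed the fold threshold once DMSO replicate 3, NCD replicate 1 or NCD replicate 2 was left out, and its log2 fold change ran from -1.02 to -0.86 over the fits without 1 library. The complex thus had 2 subunit transcripts higher and 4 lower.

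CDT1 (ENSG00000167513, GRCh38 chromosome 16, 88803213 to 88809258), which brings the MCM helicase to the origin and is normally restrained to G1, showed the largest rise of all members. Its levels were 30.4, 29.1 and 31.8 CPM with DMSO and 92.2, 92.0 and 74.7 CPM with NCD, and the NCD library nearest to the DMSO range, replicate 3, was still well above it. This was a 2.84-fold rise (standard error 0.10 on the log2 scale, edgeR adjusted p = 1.19e-06), and no annotated gene overlaps CDT1. GMNN encodes geminin, the protein that binds CDT1 and blocks relicensing. It had 94.7, 73.5 and 91.0 CPM with DMSO and 115.6, 116.9 and 104.5 CPM with NCD, a log2 fold change of 0.38 that was not past the adjusted p under every scaling. CDC6, the loading partner of CDT1, rose by 0.75 on the log2 scale, from between 175.3 and 184.9 CPM to between 290.7 and 321.6 CPM.

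The 6 subunits of the MCM helicase form a ring with a single copy of each, yet their transcripts did not move together. MCM7 had the most counts per kilobase of transcript of the licensing genes, with 327.1, 315.1 and 312.2 CPM with DMSO and 392.2, 382.0 and 356.3 CPM with NCD. Its log2 fold change was 0.24 (edgeR adjusted p = 0.00513), but it turned to -0.13 under the short-gene TMM. MCM2 rose from 155.0, 158.2 and 147.7 CPM to 282.0, 276.3 and 258.7 CPM, a log2 fold change of 0.83. TPRA1 overlaps MCM2 on the opposite strand, with up to 1075 counts, and AP4M1 overlaps MCM7 there, with up to 676.4 counts. MCM3 fell by 0.52 on the log2 scale, from a mean of 91.8 CPM per kilobase to 64.2. MCM4, MCM5 and MCM6 had log2 fold changes of -0.17, -0.13 and -0.14, which were 0.02, 0.07 and 0.05 with library totals. Under the short-gene TMM they were -0.55, -0.50 and -0.52, each past the adjusted p. In CPM per kilobase, the order with DMSO was MCM7, MCM3, MCM4, MCM2, MCM6 and MCM5, from 107.5 down to 29.3. With NCD the order was MCM7, MCM2, MCM3, MCM4, MCM6 and MCM5, from 127.3 down to 26.9. MCM2 moved from the fourth place to the second, with 42.4 CPM per kilobase with DMSO and 75.2 with NCD. With DMSO its libraries overlapped those of MCM6, at a mean of 40.4, and no other neighbours in either order overlapped. The highest subunit exceeded the lowest 3.66-fold with DMSO and 4.74-fold with NCD.

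**Figure D3:**
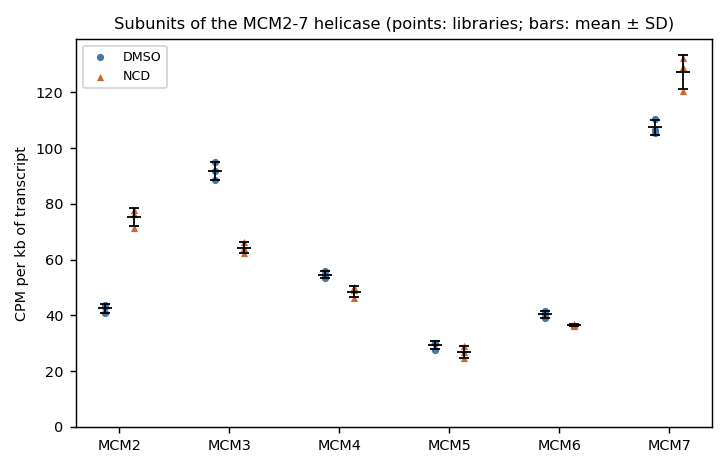
CPM per kilobase of transcript for the 6 subunits of the MCM helicase, with each library as a point and the mean ± SD of 3 libraries as bars. MCM2 lies higher with NCD (75.2 against 42.4) and MCM3 lower (64.2 against 91.8), and the other subunits differ less between the groups.

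Factors that activate the helicase and guard the fork had no called member, beside 31.0% of all tested genes called. Of the 9 genes, 3 passed the adjusted p as higher and 3 as lower, beside 35.3% and 34.1% of all tested genes. These 6 genes passed in the same direction under every scaling. MCM10 also passed as higher with library totals, and CDC45 and TIPIN as lower under the short-gene TMM. The GINS complex, a stable assembly of 4 subunits within the active helicase, was split evenly. GINS3 and GINS4 rose, with log2 fold changes of 0.91 and 0.78, and GINS1 and GINS2 fell, with log2 fold changes of -0.48 and -0.64, each without overlap between the groups. GSE1 overlaps GINS2 on the opposite strand, with up to 734 counts. CDC45, the cofactor that joins GINS on the helicase, had the most counts per kilobase of these genes, with 72.0, 62.9 and 63.7 CPM with DMSO and 63.8, 61.9 and 53.9 CPM with NCD. The groups overlapped and its log2 fold change of -0.14 (standard error 0.09) did not pass the test. CLSPN encodes claspin, an adaptor of the checkpoint at stalled forks. It rose from 66.6, 88.3 and 72.2 CPM to 120.3, 119.0 and 157.6 CPM, a log2 fold change of 0.80, and its highest libraries were DMSO replicate 2 and NCD replicate 3. WDHD1, the human counterpart of yeast Ctf4, which links polymerase alpha to the helicase, fell by 0.73 on the log2 scale, again with DMSO replicate 2 and NCD replicate 3 highest, at 93.1 and 59.9 CPM. MCM10 and TIPIN had log2 fold changes of 0.13 and -0.08 and overlapping groups.

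The polymerases contained the largest changes in the machinery, both in the complex that starts each new strand. POLA1, the catalytic subunit of polymerase alpha (ENSG00000101868, GRCh38 chromosome X, 24693919 to 24996986), had 50.7, 57.9 and 51.4 CPM with DMSO and 4.59, 3.10 and 4.52 CPM with NCD. It fell to 7.69% of its DMSO level (log2 fold change -3.70, standard error 0.14, edgeR adjusted p = 6.02e-08). PRIM2, the large primase subunit (ENSG00000146143, GRCh38 chromosome 6, 57314805 to 57646849), had 90.3, 86.1 and 82.7 CPM with DMSO and 9.79, 9.83 and 9.46 CPM with NCD. It fell to 11.2% (log2 fold change -3.15, standard error 0.08, edgeR adjusted p = 1.16e-08). In both genes the highest NCD library was far below the lowest DMSO library, and overlapping annotated genes had at most 1.34 counts. Their partners in the same 4-subunit complex did not follow. POLA2, the regulatory subunit, had 32.8, 31.8 and 31.9 CPM with DMSO and 31.7, 28.5 and 27.3 CPM with NCD (log2 fold change -0.14, standard error 0.08, edgeR adjusted p = 0.145). PRIM1, the catalytic primase subunit, had 57.7, 49.9 and 54.5 CPM with DMSO and 74.8, 73.4 and 67.1 CPM with NCD (log2 fold change 0.41). PRIM1 is overlapped on the same strand by NACA, with up to 15180 counts, so that its counts are uncertain. POLA2 is overlapped on the same strand by a gene without a symbol, with up to 150 counts.

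The sequences before the start sites of the members that fell most are shown because they let a reader see what the promoters of these 3 genes hold, and the short stretch of CDT1 because it holds 2 copies of an E2F-type motif. They come from RefSeq on GRCh38.p14, in the direction of the gene. Capitals mark matches to the motifs GCGGGAA, TTTCCCGC, TTTGGCGC, TTTCGCGC or TTTGCCGC, searched on both strands in the 250 bases before the start, where a match on the other strand appears as its reverse complement and the motifs can overlap. POLA1 (chrX:24693668-24693917, plus strand) held matches at -137 and -120, counted from the start, while ORC2 (chr2:200963661-200963910, minus strand) and PRIM2 (chr6:57317380-57317629, plus strand) held none. PRIM2 has another window in the table, also without a match, and the one shown lies at the start of its reference transcript. The ORC2 window includes 20 bases, and the PRIM2 window 6 bases, of annotated exon of the gene itself. The CDT1 stretch (chr16:88803751-88803775, plus strand) lies from -38 to -14 on the same count in RefSeq and within an annotated exon of CDT1 in GENCODE release 29.
POLA1: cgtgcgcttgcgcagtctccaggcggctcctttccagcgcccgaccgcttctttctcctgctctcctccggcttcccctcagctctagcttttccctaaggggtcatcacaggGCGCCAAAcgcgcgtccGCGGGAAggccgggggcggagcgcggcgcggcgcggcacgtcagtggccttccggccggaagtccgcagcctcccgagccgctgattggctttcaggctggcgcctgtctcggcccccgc
PRIM2: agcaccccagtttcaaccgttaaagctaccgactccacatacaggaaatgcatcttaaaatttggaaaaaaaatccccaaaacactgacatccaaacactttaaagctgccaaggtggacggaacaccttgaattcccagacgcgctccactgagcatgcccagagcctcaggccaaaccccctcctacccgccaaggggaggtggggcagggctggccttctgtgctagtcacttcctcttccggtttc
ORC2: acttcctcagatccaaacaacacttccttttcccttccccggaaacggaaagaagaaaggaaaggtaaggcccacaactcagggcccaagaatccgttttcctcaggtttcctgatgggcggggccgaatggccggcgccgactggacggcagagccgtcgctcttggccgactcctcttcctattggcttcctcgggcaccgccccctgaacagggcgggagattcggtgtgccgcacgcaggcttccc
CDT1: cccGCGGGAAatttgGCGGGAAccg

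Promoter entries matched 46 of the 52 members, with 62 windows. RPA2, MCM4, RPA3, POLD3, MCM5 and GINS4 were not matched. At least 1 of the E2F-type motifs was present in 37.1% of member windows and in 6.79% of all 35116 windows of the same length, and CCAAT, a general promoter element, in 53.2% and 32.0%. The 22 members with an E2F-type match had a median log2 fold change of -0.11, with 7 higher and 9 lower by the adjusted p. The 24 members without had a median of 0.09, with 11 higher and 7 lower. Over all tested genes, 35.3% were higher and 34.1% lower by the adjusted p. The called members were on both sides of this division, since CDT1 and POLA1 held matches and ORC6, ORC2 and PRIM2 did not.

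The elongating polymerases moved little. POLD2, the accessory subunit of polymerase delta, was highest per kilobase of the polymerase genes, with 112.1, 99.6 and 100.4 CPM with DMSO and 142.3, 139.0 and 119.7 CPM with NCD, all NCD libraries above the DMSO range. Its log2 fold change of 0.36 (edgeR adjusted p = 0.00362) was -0.02 under the short-gene TMM. POLE, the catalytic subunit of polymerase epsilon, had a log2 fold change of -0.38 and its partner POLE2 one of 0.05. POLD1 and POLD3 had log2 fold changes of 0.03 and -0.01, with standard errors of 0.08, and overlapping groups.

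Among the clamp and its loader, 3 of 6 genes passed the adjusted p as higher and 1 as lower, beside 35.3% and 34.1% of all tested genes. Only RFC5 rose under every scaling, with a log2 fold change of 0.68. PCNA, the sliding clamp, had the most counts per kilobase of all members, with 322.4, 252.9 and 286.7 CPM with DMSO and 306.9, 314.9 and 288.3 CPM with NCD. The groups overlapped and the log2 fold change was 0.08 (standard error 0.09, edgeR adjusted p = 0.448). RFC2 and RFC4 had log2 fold changes of 0.50 and 0.33, and RFC3 one of -0.22. RFC4 overlaps EIF4A2 on the opposite strand, with up to 21620 counts, and RFC5 overlaps WSB2 there, with up to 2110 counts. A gene without a symbol overlaps RFC3 on the same strand, with up to 448 counts. The strandedness of the counting is not given in the sources used here. RFC1, the large subunit, ranged from 73.9 to 103.5 CPM with DMSO and from 70.7 to 101.4 CPM with NCD, with DMSO replicate 2 and NCD replicate 3 highest.

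Genes for joining Okazaki fragments and for coating single strands had no called member, beside 31.0% of all tested genes called. None of the 5 passed the adjusted p in the same direction under every scaling. FEN1, the flap nuclease, had 215.9, 197.9 and 207.0 CPM with DMSO and 259.3, 257.7 and 228.4 CPM with NCD, a log2 fold change of 0.26 (edgeR adjusted p = 0.00721) that was -0.11 under the short-gene TMM. FADS2 overlaps FEN1 on the same strand, with up to 5259 counts. LIG1, the ligase that seals the fragments, had a log2 fold change of -0.16 and overlapping groups. The 3 subunits of RPA, the single-strand binding trimer, had log2 fold changes of -0.29 for RPA1, 0.47 for RPA2 and 0.36 for RPA3.

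Nucleotide supply held 2 genes that fell and none that rose. TYMS, thymidylate synthase, which makes dTMP, had 352.8, 314.8 and 330.8 CPM with DMSO and 245.4, 248.9 and 222.2 CPM with NCD. Its groups did not overlap (log2 fold change -0.48, standard error 0.07, edgeR adjusted p = 0.000225), although ENOSF1 overlaps it on the opposite strand, with up to 796.6 counts. RRM1, the large subunit of ribonucleotide reductase, which makes deoxynucleotides from ribonucleotides, fell from 389.3, 364.6 and 363.6 CPM to 237.6, 233.8 and 225.7 CPM, a log2 fold change of -0.68. RRM2, the small subunit, stayed between 383.4 and 412.7 CPM with DMSO and between 381.8 and 395.4 CPM with NCD (log2 fold change -0.02, standard error 0.06). TK1, the salvage kinase, and UNG, the uracil glycosylase, had log2 fold changes of 0.40 and 0.26, and DUT, the dUTPase, one of -0.06.

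CHAF1A and CHAF1B are subunits of the chromatin assembly factor that places histones behind the fork. CHAF1A, the higher of the pair per kilobase, had 52.4, 53.9 and 51.6 CPM with DMSO and 55.5, 58.7 and 51.6 CPM with NCD, with overlapping groups. CHAF1B rose from 46.6, 48.0 and 51.1 CPM to 74.3, 75.1 and 72.5 CPM, a log2 fold change of 0.61. MORC3 overlaps CHAF1B on the same strand, with up to 1208 counts, and UBXN6 overlaps CHAF1A on the opposite strand, with up to 1289 counts.

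Ratios of 2 genes within a library do not depend on the scaling between libraries, so they were compared for 5 pairs of partners. The values are log2 ratios of counts that were not divided by length, and only their shift between groups is read. RRM2 to RRM1 went from 0.08 ± 0.01 (SD, n = 3) with DMSO to 0.74 ± 0.04 (SD, n = 3) with NCD. CDT1 to GMNN was -1.64, -1.34 and -1.52 with DMSO against -0.33, -0.35 and -0.48 with NCD, a shift of 1.11 toward CDT1. MCM2 to MCM7 shifted by 0.58 and CHAF1B to CHAF1A by 0.54. In these 4 pairs the groups did not overlap, and each reached p = 0.1, the smallest that an exact two-sided permutation test of 3 against 3 libraries can give (adjusted p = 0.125 over the 5 pairs), so this design cannot pass 0.05. POLE2 to POLE shifted by 0.42 with overlapping groups (exact permutation p = 0.2, adjusted p = 0.2). Another 4 pairs were chosen after their values were seen and are given with no test. POLA1 to POLA2 moved by -3.58, PRIM2 to PRIM1 by -3.56, MCM2 to MCM3 by 1.34 and GINS4 to GINS1 by 1.27.

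**Figure D4:**
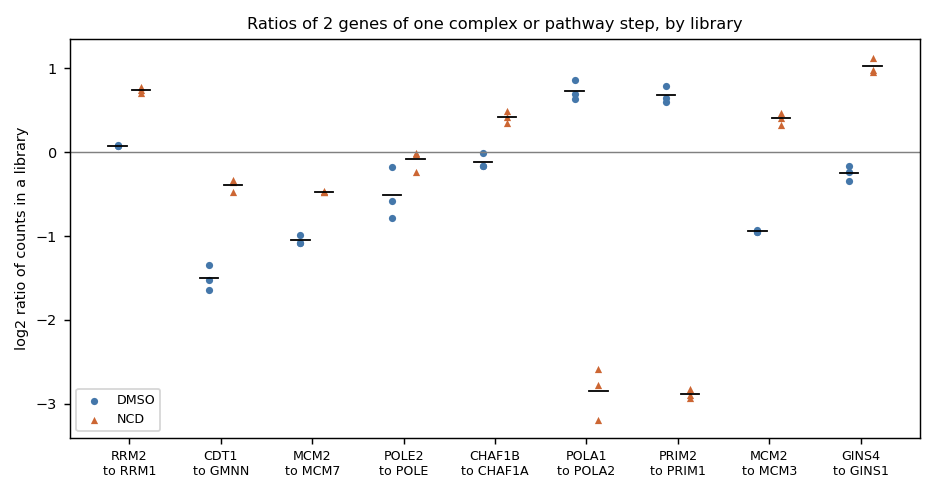
log2 ratio of the counts of 2 genes in each library, with the mean of 3 libraries as a line, for the 5 pairs compared by a test (left) and the 4 pairs chosen after their values were seen (right). DMSO and NCD libraries are apart in every pair except POLE2 to POLE, and the pairs of POLA1 and PRIM2 shift by -3.58 and -3.56.

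The changes of the members were also set against the length of genome that each reference transcript spans. POLA1 and PRIM2 span 303.1 and 329.2 kb, and the other members span at most 90.4 kb. The 20 members up to 20 kb had a median log2 fold change of 0.30, the 19 members from 20 to 50 kb one of 0.05, and the 11 members from 50 to 100 kb one of -0.38, with 10 of the 11 below zero. All tested protein-coding genes in these ranges had medians of 0.39, 0.15 and -0.46. These values use TMM. Of the 10 members below zero, POLD3, RFC1 and LIG1 were above it with library totals, at 0.18, 0.13 and 0.04. RPA3, the member above zero, was at -0.02 under the short-gene TMM. Spearman's rho between span and log2 fold change was -0.57 across the 52 members, -0.52 across the 50 without POLA1 and PRIM2, and -0.58 across 12687 protein-coding genes. These points share the same 6 libraries and genes are not independent replicates, so no test is given. The 357 tested protein-coding genes over 300 kb had a median log2 fold change of -3.59, with quartiles of -4.59 and -2.24, and the values of POLA1 (-3.70) and PRIM2 (-3.15) lie between these quartiles. CDT1 and ORC6 span 6.0 and 8.7 kb, ORC2 54.7 kb. RPA3 is the exception from 50 to 100 kb, at 0.36 with a span of 82.1 kb, and GINS2, at 12.8 kb, the lowest of the short members, at -0.64. The part of span in the changes of single members was not tested.

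**Figure D5:**
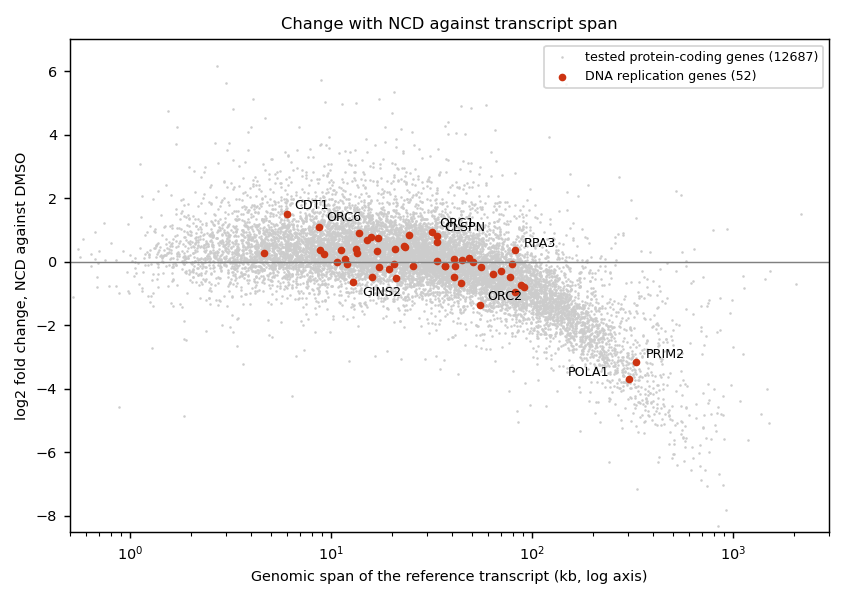
log2 fold change with NCD against DMSO plotted against the genomic span of the reference transcript (kb, log axis), with the 52 replication genes in red over 12687 tested protein-coding genes in grey. POLA1 and PRIM2 sit inside the cloud of long genes at 303.1 and 329.2 kb, and CDT1 and ORC6 at the upper left, at 6.0 and 8.7 kb.

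Summed over the 52 members, the level was 5863 to 6199 CPM with DMSO and 6048 to 6424 CPM with NCD, so the ranges overlap. Licensing genes summed to 1820 to 1899 CPM with DMSO and 2058 to 2213 CPM with NCD. All NCD libraries were also above the DMSO range for helicase and fork genes (572.7 to 601.9 against 618.3 to 663.5 CPM), the clamp and its loader (699.6 to 783.5 against 831.6 to 859.7 CPM) and chromatin assembly (99.0 to 102.7 against 124.2 to 133.8 CPM). They were below it for nucleotide supply (1478 to 1633 against 1308 to 1433 CPM) and polymerases (508.4 to 526.0 against 400.6 to 439.8 CPM). Without POLA1 and PRIM2, the other 7 polymerase genes summed to 374.4 to 384.9 CPM with DMSO and 386.5 to 425.4 CPM with NCD. The sums of Okazaki fragment and RPA genes overlapped between groups, at 615.7 to 662.5 and 661.8 to 719.5 CPM. These sums use the TMM scaling and were not tested. Library totals moved the median log2 fold change of all genes by 0.20, and the short-gene TMM by -0.37. The smaller differences between the sums therefore depend on the scaling and are not read as rises or falls. In RNA from bulk cells, fewer cells in a phase of the cycle and less RNA per cell cannot be told apart.

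Other genes of the pathway were taken from lists written with earlier results of these data known. Of 48 further replication genes, all tested, 8 were called (16.7%, against 31.0% of all tested genes), 4 in each direction. By the adjusted p, 19 were higher and 19 lower, beside 35.3% and 34.1% of all tested genes. Their median log2 fold change was -0.05. CTPS1, the CTP synthase that feeds pyrimidine nucleotides, fell by 2.97 on the log2 scale (edgeR adjusted p = 1.16e-08) and spans 33.2 kb. CDCA7, a chromatin factor of the HELLS remodeler, fell by 1.54, and ASF1B, a histone chaperone that hands histones to the chromatin assembly factor, and DONSON, a fork protection factor, rose by 1.35 and 1.08. Both were below the fold threshold under the short-gene TMM, at 0.97 and 0.70. SON overlaps DONSON on the opposite strand, with up to 5138 counts. Of 11 genes of the replication checkpoint, 3 were called (27.3%, also beside 31.0%), namely ATR (-2.29) and ATM (-1.77), the apical kinases, which span 129.6 and 146.3 kb, and RAD9A (1.16), a part of the checkpoint clamp. RAD9A was at 0.78 under the short-gene TMM, and PPP1CA overlaps it on the opposite strand with up to 7357 counts.

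Regulators of the entry into S phase were called in 6 of 26 cases (23.1%, beside 31.0% of all tested genes), 2 higher and 4 lower. RB1, the pocket protein that holds E2F factors in check, had a log2 fold change of -2.34 with a span of 178.2 kb, RBL1, its relative, one of -1.22, and CDK6, the cyclin D kinase, one of -3.16 with a span of 229.0 kb. CDKN1A, the p21 inhibitor of cyclin-dependent kinases, rose by 1.05 on the log2 scale (0.67 under the short-gene TMM). CCNE2 had a log2 fold change of 0.96, CCNE1 one of -0.07 and E2F1 one of 0.31, which was -0.06 under the short-gene TMM. Of 31 markers of G2 and mitosis, 5 were called (16.1%, against 31.0% of all tested genes), all lower (17.5% of all tested genes were called lower). By the adjusted p, 2 were higher and 16 lower, beside 35.3% and 34.1% of all tested genes, with a median of -0.28. BUB1B, ANLN, DLGAP5 and CENPE, which act in mitosis, had log2 fold changes of -1.51, -1.36, -1.03 (-0.83 with library totals, below the fold threshold) and -2.40. Their spans were 60.1, 64.0, 43.5 and 92.6 kb. CENPE had a standard error of 0.45, with 3.85, 5.74 and 15.1 CPM in the NCD libraries. MKI67, the Ki-67 proliferation marker, had a log2 fold change of -0.45 (edgeR adjusted p = 0.0144), although its groups overlapped. The summed level of these 31 genes was 5776 to 6426 CPM with DMSO and 4392 to 5125 CPM with NCD, and none was at 0 in any library. The part of the cell cycle in the changes of the replication genes was not tested.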

How the data were processed

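RNA-seq libraries of MDA-MB-231 cells (3 with 0.1% DMSO and 3 with 5 μM NCD, 24 h) were compared. The authors aligned reads with HISAT2 and deposited expected counts per Ensembl gene estimated with RSEM, with no normalization. GRCh38 (hg38) is named in the submitters' processing notes, while tool versions, annotation release and strandedness are not given in the sources used here. The authors tested with DESeq2.

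Each file held 25 stray lines with no gene, which were skipped. Symbols were matched for 62666 of 63241 identifiers, and spans and lengths came from GENCODE release 29 on GRCh38 (58228 identifiers, at least 99.44% of counts), using 1 principal transcript per gene. Expected counts were rounded, and edgeR 4.0.16 under R 4.3.3 was run with filterByExpr, TMM, glmQLFit and glmQLFTest. TMM factors were 0.9115 to 0.949 with DMSO and 1.059 to 1.092 with NCD. The standard error is the absolute log2 fold change over the square root of F. CPM uses the TMM-scaled sizes. The fit was tested on simulated data. Libraries of a group differed beyond sampling noise (chi-square per degree of freedom 2.05 to 15.42).

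Alternatives were DESeq2 1.42.0, limma-voom (limma 3.58.1), library totals, TMM from genes with a span of at most 20 kb, a minimum of 10 counts per library or no filter, calls by adjusted p alone, a pseudocount of 1 in place of 0.5 in the ratios, a block for replicate number, and fits that each omit 1 library. Leaving out DMSO replicate 2 and NCD replicate 3 together was chosen after seeing the data. Ratios used an exact permutation test in scipy 1.17.1, with pandas 2.3.3, numpy 2.4.6 and matplotlib 3.10.9 for tables and figures. Members and lists were chosen with earlier results of these data known. The naming rule gave values in every library for called members and for the member with the most counts per kilobase in each role, and other members by range with at most 4 examples per role. The text goes beyond it: further examples, and the values in every library of GMNN, MCM2, CLSPN, POLA2, PRIM1, RRM1 and CHAF1B, were chosen after their values were seen. Of further lists, up to 4 called genes with the smallest p are named, with E2F1, CCNE1, CCNE2, CDKN1A and MKI67. The other experiments of the study were not analysed here.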

Additional observations from a re-analysis of the deposited data

How the results depend on the processing

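The 5 called members were 5 under DESeq2, limma-voom, both other filters and the replicate block, and 5 to 6 when each library was left out, with 2 higher, 3 to 4 lower, and a median log2 fold change of -0.05 to 0.03. Among all genes, calls were 4653 to 5049 without 1 library, and 8 to 11 among related replication genes. Scaling mattered most. Library totals gave 9 called members of 52, 6 of them higher, and a median of 0.20. Of all 15295 tested genes, 4974 were called there, 2793 of them higher. Short-gene TMM gave 9 called members, 1 higher and 8 lower, with a median of -0.37, beside 5045 genes called, 1138 higher. The cause was not tested. With no fold threshold, 10602 genes, 38 members (21 higher, 17 lower) and 38 related genes were called. Library totals turned MCM4 (0.02), MCM5 (0.07), MCM6 (0.05), CDC45 (0.05), TIPIN (0.12), POLA2 (0.05), POLD3 (0.18), RFC1 (0.13), LIG1 (0.04), RRM2 (0.18) and DUT (0.14) positive. Short-gene TMM turned MCM7 (-0.13), MCM10 (-0.24), POLD1 (-0.35), POLD2 (-0.02), POLE2 (-0.33), PCNA (-0.30), RFC4 (-0.05), FEN1 (-0.11), RPA3 (-0.02), UNG (-0.12) and CHAF1A (-0.31) negative. Without 1 library, values ran from -0.08 to 0.06 for POLD3, -0.03 to 0.09 for POLE2, -0.01 to 0.14 for PCNA, -0.27 to 0.07 for RFC1, -0.04 to 0.06 for POLD1 and -0.12 to 0.00 for DUT. With both DMSO replicate 2 and NCD replicate 3 left out, POLD3 was 0.07. The 5 ratios kept their direction under the other pseudocount and without any 1 library. Deviations from the group mean had correlations of 0.216, -0.185 and 0.023 between libraries with the same replicate number. Because deviations followed transcript length among the members, these values cannot settle whether replicate numbers pair the samples. The replicate block moved the count of all called genes to 4723. Counts below a few per library cannot be measured at these depths.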

Other observations

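Named pseudogene copies can draw reads from their parent genes. Of the 52 replication genes, 14 have such copies, 30 in all, and the most any copy held in a library was 3 counts, for RRM2P3.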
